A study of Mus musculus with 2 samples.

Results

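The genes described here build the extracellular matrix of the thymus. They are the protein-coding genes whose mouse symbol marks a collagen chain or a laminin chain, together with 13 named matrix genes: Fn1, Nid1, Nid2, Hspg2, Agrn, Tnc, Vcan, Sparc, Eln, Fbn1, Postn, Lum and Dcn. The rule found 69 of the 43346 genes in the tables, of which 21474 are protein-coding. The 69 were 44 collagen genes, 11 laminin genes, the 13 named genes, and Col4a3bp, which encodes a ceramide transfer protein and met the symbol pattern without being a collagen. The rule uses gene symbols only.

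The data were 2 RNA-seq libraries of adult thymus from the inbred mouse strain C57BL/6J at 8 weeks of age, given as biological replicates 1 and 2 of a single group. Both were labelled as mixed-sex tissue from littermates, with separate biosamples but 1 donor entry. SDs thus measure only the spread between these samples, which may be technical. The p-values compare only these 2 samples, and those of the exact binomial test cover counting error only. RNA was polyadenylated, depleted of ribosomal RNA and longer than 200 nucleotides, and it was sequenced as stranded read pairs of 76 bases. The samples analysed were of 1 tissue, age and strain, so the comparisons are between genes within the thymus and between the 2 libraries.

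The thymus is packed with developing T cells, and its matrix is made mostly by fibroblasts, vessel cells and epithelial cells that form a small part of the organ. Collagens are trimers of chains wound into a triple helix: fibrillar collagens give tensile strength, while collagen IV polymerises into a sheet. Laminins are trimers of an alpha, a beta and a gamma chain, and with collagen IV, nidogens, perlecan and agrin they form the basement membranes that underlie the capsule, the epithelium and the vessels.

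The gene tables held 48.6 and 62.1 M estimated fragments on genes in replicates 1 and 2. All 10 thymocyte markers were at 1 TPM or more (the authors' abundance scaled by transcript length and library total), led by Lck at 1327 and 1454 TPM. All 10 markers of cortical and all 9 of medullary epithelium, all 12 of fibroblasts and mesenchyme, all 10 of endothelium and all 8 of pericytes and smooth muscle also reached that level. In whole tissue, fewer cells of a type and less RNA per cell cannot be told apart.

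The triple helix needs a glycine at the start of each unit of 3 residues, and glycine codons read GGN. This feature, which the rule did not use, was counted in the coding sequence of each gene, taken from GENCODE M21 transcripts on GRCm38. In Col1a1, GGN began every unit of 3 codons over 338 successive units, in Col1a2 over 339, in Col3a1 over 344, and in both Col6a1 and Col6a2 over 87. Col4a1 and Col4a2, whose helices are interrupted, had longest runs of 40 and 66 units. The longest run over the 44 collagen genes was 23 to 344 units, with a median of 58.5, and over the other 25 genes at most 17, in Eln. Col4a3bp had a longest run of 2. The 90 coding bases from the start of the longest run are shown for a fibrillar, a beaded filament and a network collagen and for Col4a3bp, to show the repeat and its lack. Capitals mark GGN codons.
Col1a1: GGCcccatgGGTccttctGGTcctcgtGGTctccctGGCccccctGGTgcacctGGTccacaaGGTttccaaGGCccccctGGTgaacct
Col6a1: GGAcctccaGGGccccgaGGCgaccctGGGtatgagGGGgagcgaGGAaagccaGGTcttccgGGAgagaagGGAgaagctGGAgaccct
Col4a1: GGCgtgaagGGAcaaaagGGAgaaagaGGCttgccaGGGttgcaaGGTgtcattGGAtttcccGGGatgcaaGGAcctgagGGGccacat
Col4a3bp: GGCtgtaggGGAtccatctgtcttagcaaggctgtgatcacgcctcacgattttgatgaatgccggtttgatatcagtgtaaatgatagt
Codons 168 to 197 of Col1a1-201, 256 to 285 of Col6a1-201, 43 to 72 of Col4a1-201 and 64 to 93 of Col4a3bp-201 are shown, all exonic and coding. The genes lie at chr11:94936224-94953042 (plus strand), chr10:76708792-76726168 (minus), chr8:11198423-11312826 (minus) and chr13:96542618-96640167 (plus).

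Of the 69 genes, 47 (68.1%) had at least 1 TPM on average over both libraries, the limit used for detection, against 60.3% of all protein-coding genes. High levels were not more frequent, with 22 genes (31.9%) at 10 TPM or more against 36.2%. Another 25 genes were between 1 and 10 TPM, 16 between 0.1 and 1, and 6 below 0.1 TPM. The median over all 69 genes was 3.62 TPM, beside 3.30 TPM for protein-coding genes. All 13 named glycoprotein and proteoglycan genes, 9 of 11 laminin genes and 24 of 44 collagen genes reached 1 TPM. The 69 genes together made up 762 TPM in replicate 1 and 843 TPM in replicate 2, which is 0.0762% and 0.0843% of all transcripts, and they took 0.210% and 0.235% of fragments. The collagens summed to 276 and 282 TPM and the laminins to 104 and 117 TPM, so matrix RNA was a small fraction of both libraries.

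**Figure D1:**
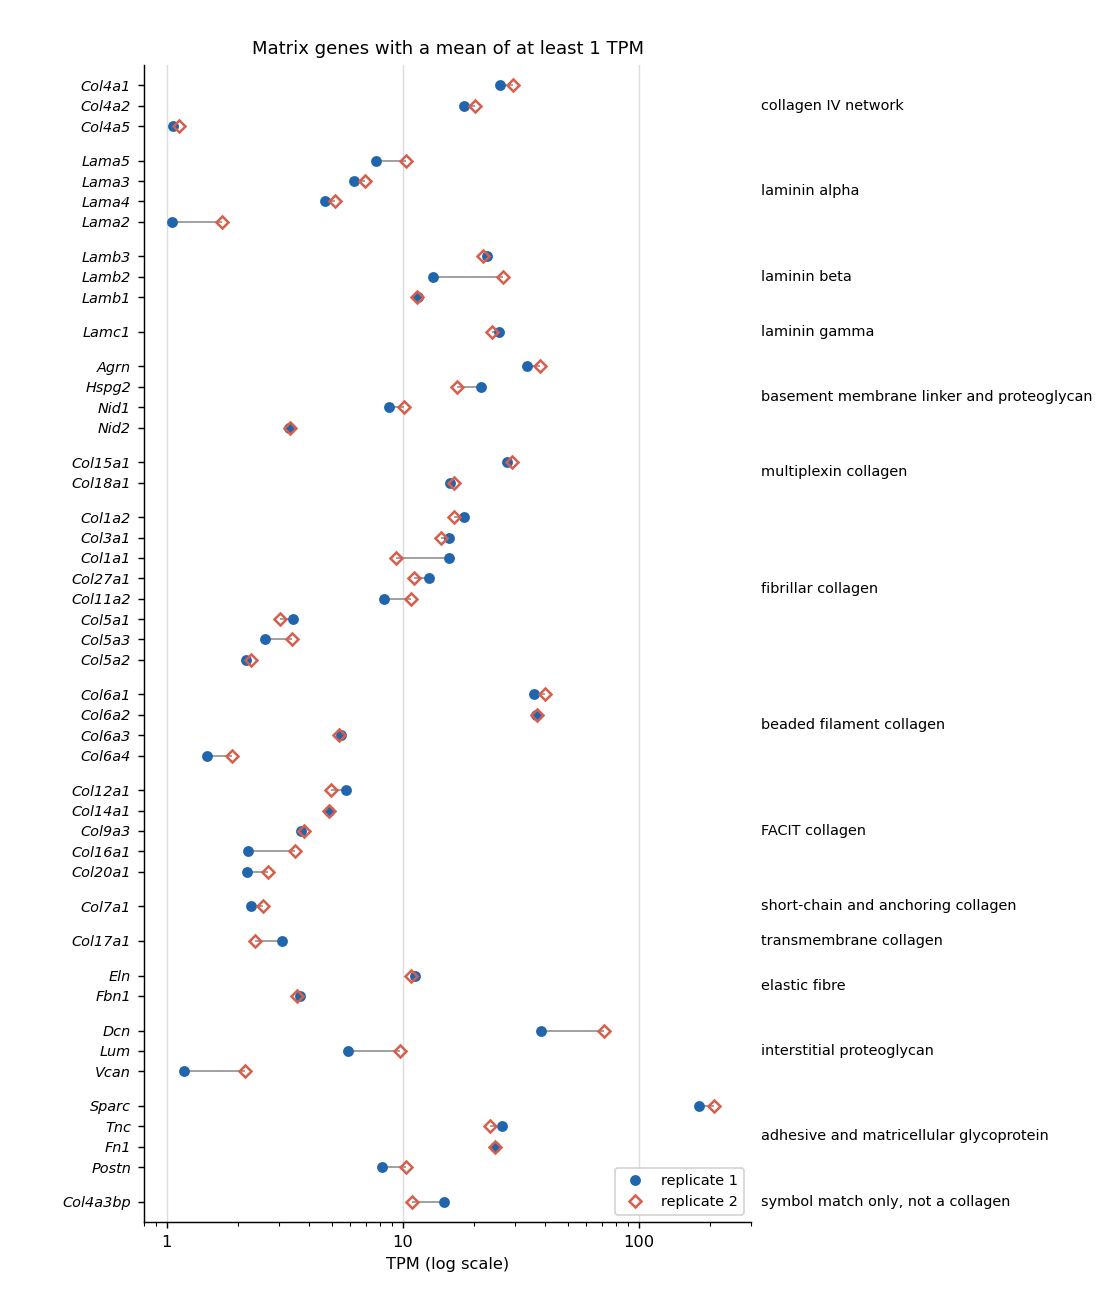
Level of 46 of the 47 detected genes, in TPM on a log axis, grouped by role. Filled circles are replicate 1, open diamonds replicate 2, and a grey line joins both values of a gene. Sparc lies far to the right of the others, and Lamb2, Dcn and Col1a1 show wide gaps between the libraries.

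The collagen IV sheet of basement membranes was represented by its widespread chains. Col4a1 was at 25.9 TPM in replicate 1 and 29.4 TPM in replicate 2. Its partner Col4a2 was at 18.2 and 20.3 TPM. The ratio of Col4a1 to Col4a2 was 1.42 and 1.45 (1.43 ± 0.0229, SD, n = 2), and the trimer they form holds more alpha-1 than alpha-2 chains. Col4a5, a chain of specialised basement membranes, was at 1.06 and 1.13 TPM, or 3.93 and 3.90 times its partner Col4a6. Col4a3 and Col4a4, the other chains of that specialised network, stayed at or below 0.18 TPM in each library. The order of these chains was thus the same in both libraries except for Col4a3 against Col4a4, with ratios of 1.17 and 0.722 at very low counts. The first exons of Col4a1 and Col4a2 overlap by 22 bases on opposite strands. Whether the counting used strand is not stated, so reads in shared bases on opposite strands may not be told apart.

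Among laminins, the highest beta and gamma chains stood above the highest alpha chain. Lamc1, the gamma chain of most laminins, was at 25.5 and 23.9 TPM. Lamb3, a chain of laminin-332 in epithelial basement membranes, was at 22.8 and 21.9 TPM. Lamb2, a beta chain of vessel, muscle and nerve basement membranes, was at 13.5 and 26.6 TPM, almost double in replicate 2. Lamb1, the other widespread beta chain, was at 11.6 and 11.5 TPM, so the order of Lamb2 and Lamb1 was the same in both libraries but their ratio was 1.16 in one and 2.31 in the other. Of the alpha chains, which bind cell receptors, Lama5 was highest at 7.70 and 10.3 TPM. It was followed by Lama3, the epithelial partner of Lamb3, at 6.20 and 6.96 TPM and Lama4, the endothelial chain, at 4.69 and 5.16 TPM. In TPM, neighbours in this order differed in the same direction in both libraries, and the ratio of Lama4 to Lama5 was 0.609 and 0.50. On coding transcripts at least 50% as long as the longest of the gene, Lama5 was at 5.95 and 7.19 TPM, so the order of Lama5 and Lama3 differed between the libraries there, and the ratio of Lama4 to Lama5 was 0.393 and 0.41 (0.214 and 0.221 as CPM, counts scaled by library total but not by length). The ratio of Lamb2 to Lamb1 was 1.01 and 1.54 on those long coding transcripts and 1.03 and 1.58 as CPM. Lamb2 and Lamb1 were thus nearly level in replicate 1 on those scales. Lama2, a chain of muscle basement membrane, was at 1.05 and 1.72 TPM, while Lama1 was at 0.12 and 0.11 TPM.

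Lamb1 reached 0.456 and 0.482 of Lamc1. Summed over genes, the alpha chains made up 22.0 ± 3.18 TPM and the beta chains 54.0 ± 8.56 TPM (SD, n = 2), so these sums were apart by more than their SDs.

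The linkers of basement membranes were all detected. Agrn (agrin), a heparan sulphate proteoglycan that binds laminin and dystroglycan, was at 33.7 and 38.3 TPM. Hspg2 (perlecan), the main proteoglycan of basement membranes, was at 21.4 and 17.03 TPM. Nid1 and Nid2, the nidogens that bridge laminin and collagen IV, were at 8.77 and 10.1 TPM and at 3.30 and 3.34 TPM. In TPM, agrin was the highest of the 4 in both libraries, and Nid1 exceeded Nid2 by 2.66 and 3.03 times. As CPM, Hspg2 was at 148 and 130 and Agrn at 134 and 166, so Hspg2 was the higher in replicate 1 on that scale. The multiplexins Col15a1 and Col18a1, basement membrane collagens that carry endostatin-type domains, were at 27.8 and 29.0 TPM and at 15.9 and 16.6 TPM. Nid2 shares 437 exonic bases with Rtraf on the opposite strand.

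Fibrillar collagens were each lower than Col6a1 and Col6a2 of the beaded filament collagen VI. Col1a2 and Col1a1, the chains of collagen I, were at 18.2 and 16.5 TPM and at 15.7 and 9.40 TPM. Col3a1, which forms thin fibrils with collagen I, was at 15.7 and 14.5 TPM. The usual collagen I trimer holds more alpha-1 than alpha-2 chains, whereas the ratio of Col1a1 to Col1a2 transcripts was 0.863 and 0.570. As CPM it was 1.03 and 0.727, so Col1a1 was not below Col1a2 in replicate 1 on that scale. Col27a1 was at 12.98 and 11.1 TPM and Col11a2, a chain best known from cartilage, at 8.33 and 10.9 TPM. Both exceeded Col5a1, Col5a2 and Col5a3, the chains of collagen V that nucleates fibrils, at 2.17 to 3.43 TPM. Col2a1, the cartilage fibril collagen, was at 0.26 and 0.37 TPM and Col11a1 at 0.02 and 0.01 TPM. Of 8 cartilage markers, 4 reached 1 TPM, with Sox9 highest at 7.14 and 5.60 TPM.

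Col6a1 and Col6a2, chains of the beaded filaments that surround cells, were the highest collagen genes, at 35.9 and 40.0 TPM and at 36.7 and 37.2 TPM. Their ratio was 0.978 and 1.07, on either side of 1, so the 2 genes did not differ beyond the spread between libraries. Col6a3, the long chain of the same trimer, was at 5.48 and 5.36 TPM, only 0.153 and 0.134 of Col6a1 on the same scale. As CPM this ratio was 0.315 and 0.292. The related Col6a4 was at 1.48 and 1.90 TPM, and Col6a5 and Col6a6 were between 0.64 and 0.66 TPM.

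The collagens that sit on fibril surfaces (FACIT collagens) were lower, with Col12a1 at 5.78 and 4.96 TPM, Col14a1 at 4.88 and 4.87 TPM and Col9a3 at 3.70 and 3.81 TPM. Col16a1 was at 2.21 and 3.51 TPM and Col20a1, which shares 79 exonic bases with an unnamed gene on the same strand, at 2.19 and 2.70 TPM. Col7a1 forms the anchoring fibrils of stratified epithelium and Col17a1 is a hemidesmosome component. They were at 2.28 and 2.55 TPM and at 3.08 and 2.38 TPM, the only detected members of the anchoring and transmembrane classes.

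Sparc was the highest of all 69 genes, at 180.0 and 209 TPM, or 23.6% and 24.7% of their summed TPM, and stood 683rd among protein-coding genes. As CPM, Agrn had the highest mean instead, at 150.0 CPM, although Hspg2 was above it in replicate 1. Sparc encodes osteonectin, a collagen-binding matricellular protein. Tnc (tenascin-C) was at 26.3 and 23.5 TPM and Fn1 (fibronectin), which cells assemble into fibrils, at 24.7 and 24.6 TPM. Postn (periostin) was at 8.15 and 10.4 TPM. Among the proteoglycans of interstitial matrix, Dcn (decorin), which coats collagen fibrils, was at 38.7 and 71.2 TPM and Lum (lumican) at 5.87 and 9.70 TPM. Dcn exceeded Lum by 6.58 and 7.34 times, with both higher in replicate 2. Vcan (versican) was at 1.19 and 2.16 TPM. Eln (elastin) was at 11.3 and 10.8 TPM and Fbn1 (fibrillin-1), the scaffold of elastic fibres, at 3.67 and 3.56 TPM. Col4a3bp, the gene that is no collagen, was at 15.04 and 10.96 TPM.

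The 22 genes under 1 TPM were Lamc3 (1.02 and 0.85 TPM), Col23a1, Col6a6, Col6a5, Col26a1, Col2a1, Col4a6, Col8a2, Col10a1, Col9a2, Col8a1, Col4a4, Col9a1, Lama1, Col13a1, Col4a3, Col28a1, Col19a1, Col22a1, Col24a1, Col11a1 and Col25a1. They include 20 collagens and 2 laminins, and no named glycoprotein. Just inside the limit lay Col4a5 at a mean of 1.10 TPM and just outside it Lamc3 at 0.935 TPM. Col25a1, a transmembrane collagen known from neurons, had 1 fragment in replicate 1 and 0 in replicate 2, where a count of 0 allows up to 3 fragments.

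**Figure D2:**
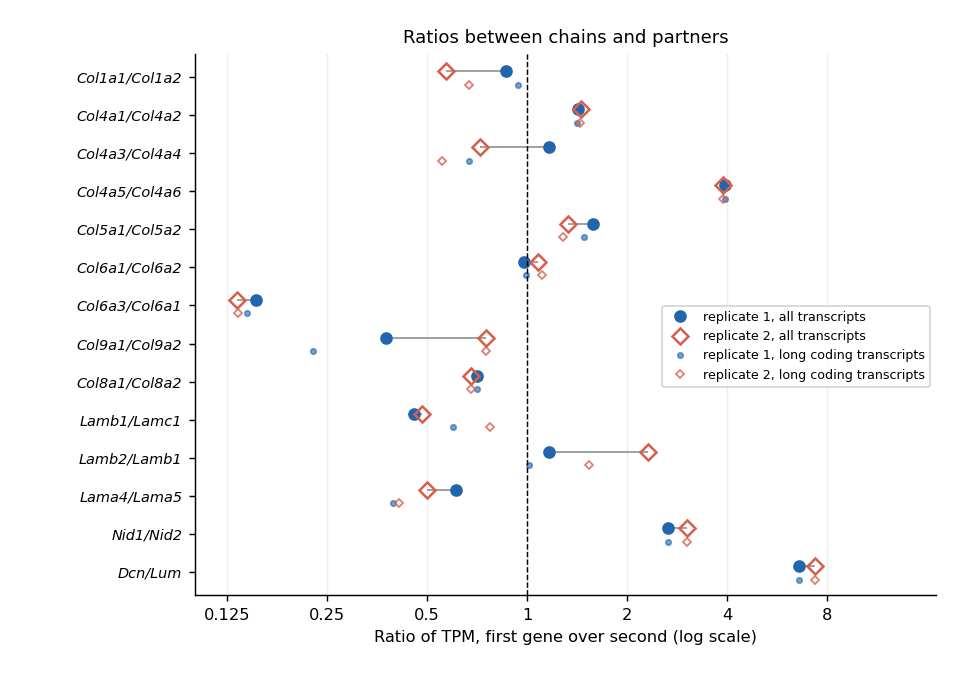
Ratio of TPM between 14 of the 15 pairs of chains or partners, on a log axis with a dashed line at 1. Large symbols use all transcripts and small symbols only coding transcripts at least 50% as long as the longest of the gene, with circles for replicate 1 and diamonds for replicate 2. In 12 of these 14 pairs the large symbols of both libraries lie on the same side of 1.

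Of the 15 pairs compared, 13 had the same gene higher in both libraries, the exceptions being Col4a3 with Col4a4 and Col6a1 with Col6a2. The ratios of Col4a1 to Col4a2 and of Col4a5 to Col4a6 were nearly equal between libraries, while Lamb2 to Lamb1 and Col1a1 to Col1a2 moved most among pairs of detected genes. Of the pairs in which a gene was under 1 TPM, Col8a1 was 0.708 and 0.679 of Col8a2, and Col9a1 was 0.375 and 0.75 of Col9a2. The latter rested on only 7 and 21 fragments of Col9a1 and 23 and 21 of Col9a2.

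Between the libraries, none of the 47 detected genes reached a log2 TPM ratio of 1 in either direction (replicate 2 over replicate 1, on TPM plus 0.1, which understates low genes), where 3.09% of detected protein-coding genes did. The gene nearest to that limit was Lamb2 at 0.97, followed by Dcn at 0.88, Vcan at 0.81, Col1a1 at -0.73 and Lum at 0.72. Among undetected genes, Col26a1 had a ratio of 1.12 from 16 and 28 fragments. The median ratio of the 47 genes was 0.06, beside -0.04 for all detected genes, with 28 genes higher and 19 lower in replicate 2. A ratio within 1.25-fold was found for 32 genes (68.1%), beside 70.5% of detected protein-coding genes, so the libraries repeated these genes about as closely as others. For Vcan the length-scaled and unscaled values parted: its CPM ratio was only 0.10 on the log2 scale, with 135 and 196 fragments, and its average transcript length was 3461 bases in replicate 1 and 2081 in replicate 2.

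**Figure D3:**
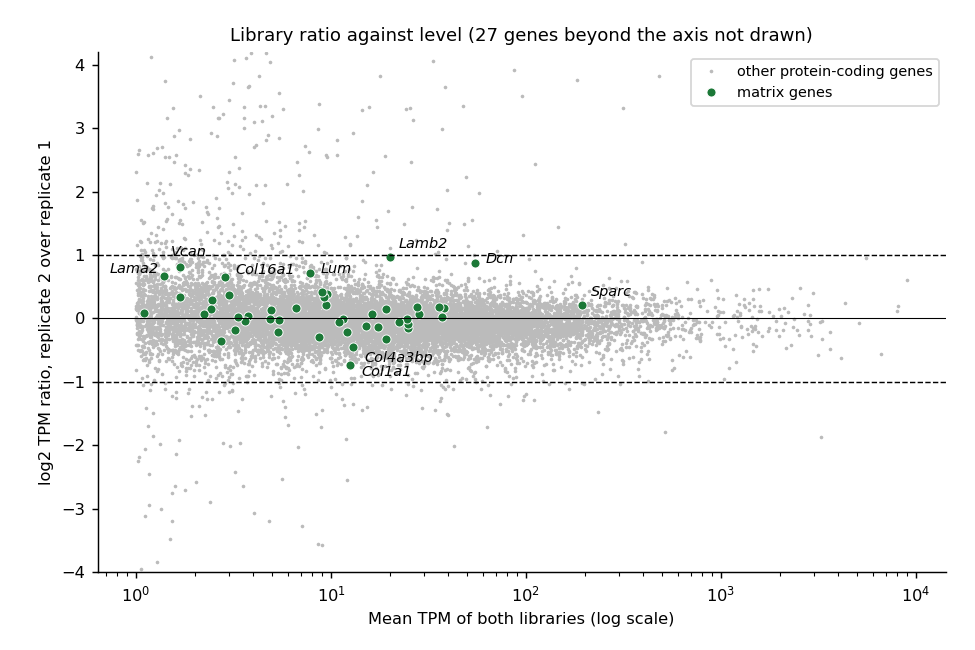
Log2 ratio of TPM, replicate 2 over replicate 1, against the mean TPM on a log axis. Green points are the 47 detected matrix genes, grey points other detected protein-coding genes, dashed lines mark ratios of 1 and -1, and 27 grey points beyond the axis are not drawn. Every green point lies between the dashed lines, with Lamb2 and Dcn near the upper line and Col1a1 lowest.

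The fragment counts behind these genes were large enough to resolve small differences between libraries. By an exact binomial test of the counts, which compares these 2 libraries and covers counting error only, 36 of the 64 genes with enough counts differed at an adjusted p under 0.05, beside 52.0% of all 17198 genes tested. In replicate 2, 27 (42.2%) were higher and 9 (14.1%) lower, beside 25.1% and 26.9% of all genes. Dcn rested on 2242 and 5707 fragments (log2 ratio 0.92, edgeR exact binomial test, adjusted p = 6.2e-153). Lamb2 rested on 1678 and 4044 fragments (0.84, adjusted p = 2.1e-93 by the same exact test), and Lum on 383 and 876 (0.76, adjusted p = 7.1e-18 by the same exact test). Col1a1 was lower in replicate 2, with 3142 and 2611 fragments (-0.70, adjusted p = 1.5e-73 by the same exact test), and Fn1 did not pass, with 4177 and 5650 fragments (0.00, adjusted p = 0.93 by the same exact test). Only 3 genes combined an adjusted p under 0.05 with a log2 ratio of at least 1, beside 4.54% of all genes, and all 3 were under 1 TPM: Col4a4 with 22 and 85 fragments, Col4a3 with 12 and 40, and Col10a1, the collagen of hypertrophic cartilage, with 16 and 49. By edgeR's exact negative binomial test, none of the 64 was called at an adjusted p under 0.05. Its spread (coefficient of variation 0.215) was estimated from these same 2 libraries taken as 1 group, so it holds the difference tested. The lack of calls thus does not show that these genes are alike in both libraries.

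Markers of other cell types also differed between the libraries, and their part in the differences of Lamb2, Dcn, Lum and Col1a1 was not tested. The 8 skeletal muscle markers summed to 20.6 TPM in replicate 1 and 184 TPM in replicate 2, with 5 of 8 at 1 TPM or more and Myh1, Myh2 and Myh4 at or under 0.15 TPM. Ckm, a creatine kinase that heart muscle also expresses, made up most of the sum in replicate 2, at 10.7 and 163 TPM. Acta1, the other of these markers past a log2 ratio of 1, was at 0.77 and 10.1 TPM. Of genes chosen after their values were seen, Myl2, a myosin light chain of the heart, was at 0.66 and 133 TPM and Mb (myoglobin) at 15.1 and 438 TPM. The 6 mesothelial markers, all detected, summed to 31.0 and 54.4 TPM, with Upk3b at 7.84 and 19.4 TPM. Liver and plasma protein genes, 6 of 7 detected, went the other way, from 148 TPM in replicate 1 to 7.90 TPM in replicate 2, with Alb (albumin) at 44.2 and 0.18 TPM. The 6 Schwann cell markers, 3 of them detected, summed to 11.7 and 4.57 TPM. The 10 fat markers, all detected, summed to 2087 TPM in replicate 1 and 1600 TPM in replicate 2, but their median log2 ratio was only -0.10. Lower in replicate 2 were Cfd at 820 and 680 TPM, Ucp1 at 346 and 124 TPM and Scd1 at 386 and 242 TPM. Car3, at 258 and 295 TPM, and Lep, at 1.09 and 2.41 TPM, were among those higher in replicate 2. Both the 8 macrophage markers, at 1045 and 1418 TPM, and the 10 of cortical epithelium, at 1945 and 2567 TPM, had higher sums in replicate 2, and all of them were detected. Fibroblast markers, the nearest in kind to Dcn and Col1a1, had a median log2 ratio of 0.28 and none past 1, with Thy1, which thymocytes also express, at 1860 and 1676 TPM. Endothelial markers had a median of 0.23 and pericyte and smooth muscle markers one of -0.07, with none past 1 in either list. The highest endothelial markers, Eng and Pecam1, were at 52.1 and 52.2 TPM and at 47.4 and 45.7 TPM.

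Much of the TPM of several genes fell on short or non-coding annotated transcripts. Of the 47 genes, 43 had at least 2 annotated transcripts, and 40 of these had the same leading transcript in both libraries. The leading transcript took a median of 68.1% of the gene's TPM. Transcripts not classed as coding took a median of 2.20% of TPM, beside 8.95% over all detected protein-coding genes with several transcripts, but 15 of the 43 (34.9%) had over 25% there, beside 33.0%. Among the collagens, Col1a1, Col3a1, Col4a1, Col4a2 and Col6a1 had nearly all TPM on 1 full-length coding transcript.

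Sparc was one such gene. Sparc-206, a coding model of 640 nucleotides, took 49.3% and 41.1% of its TPM and Sparc-205, a retained intron, 23.4% and 36.8%. On coding transcripts at least 50% as long as the longest of the gene, Sparc was at 49.0 and 45.8 TPM, and Dcn, at 38.7 and 71.2 TPM, then had the highest mean of all 69 genes. For Lamc1 the 1447-nucleotide Lamc1-204 took 44.5% and 48.4%, and for Hspg2 the 820-nucleotide non-coding Hspg2-202 took 32.9% and 31.3%. For Fn1 the leading model was Fn1-209, of 816 nucleotides and marked for nonsense-mediated decay, at 24.6% and 28.2%. Non-coding models also led Col9a3 (Col9a3-206) and Col16a1 (Col16a1-207), and took 57.5% and 62.9% of Col27a1. On long coding transcripts Lamb2 was at 8.53 and 14.6 TPM, so replicate 2 was again the higher. The count of genes at 1 TPM or more on long coding transcripts was 43. Below that limit on average were Lama2 at 0.67 and 1.03 TPM, Col9a3 at 0.83 and 1.00 TPM, Col16a1 at 0.36 and 0.22 TPM and Vcan at 0.28 and 0.30 TPM. Vcan-204, a coding model of 294 nucleotides, held 33.2% and 73.6% of the TPM of Vcan, from 1.09 and 6 estimated fragments.

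Leading transcripts differed between the libraries for 3 genes. Lamb1-205 led Lamb1 in replicate 1, with 47.8% against 24.5% for Lamb1-201, and Lamb1-201 led in replicate 2 with 43.8%. For Lama4 the retained intron Lama4-207 (50.1% and 42.2%) and the full-length coding Lama4-201 (49.9% and 57.2%) changed places. For Col7a1 the retained intron Col7a1-205 took 41.0% and 40.7% and the coding Col7a1-202 took 36.5% and 51.9%. The first of these swaps was between long coding models and the other 2 between a coding and a non-coding model. Lama4-207 rested on only 24.4 and 31.2 estimated fragments, beside 479 and 837 for Lama4-201. Col7a1-205 rested on 15.7 and 24.1, beside 264 and 581 for Col7a1-202. By fragments the coding model was ahead of the retained intron in both libraries for both genes.

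**Figure D4:**
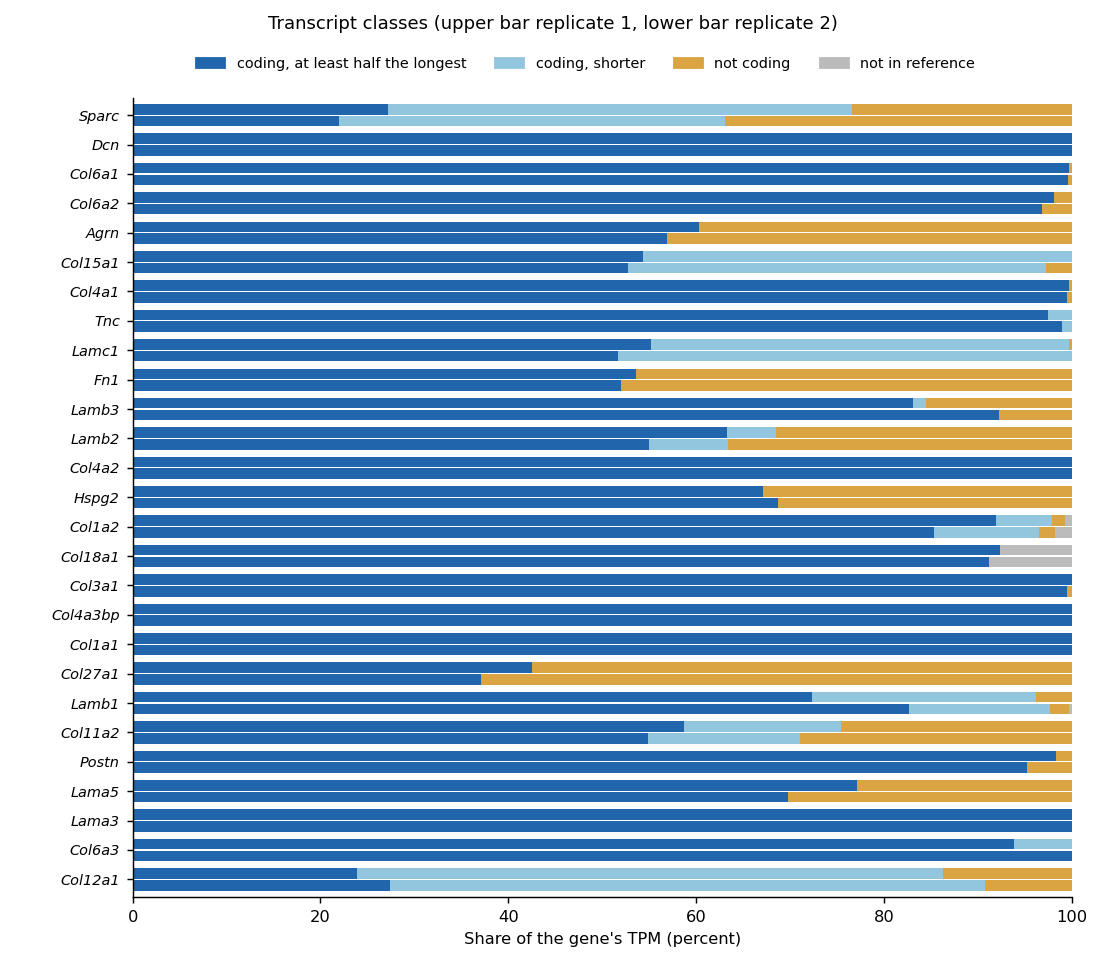
Share of each gene's TPM by class of transcript, in percent, for genes of at least 5 TPM with several annotated transcripts, ordered by level from the top. The upper bar of each pair is replicate 1 and the lower replicate 2. Col4a2 and Col1a1 are all long coding (dark blue), while Sparc, Lamc1 and Col12a1 have large shares on short coding models (light blue) and Col27a1, Fn1 and Agrn on non-coding ones (yellow).

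Fibronectin has a pair of alternative exons, EIIIA and EIIIB, that are known to be skipped in the plasma form and included in part of the tissue form. They were identified here by length and order in Fn1-201, and both are exonic and coding. EIIIA, of 270 bases at chr1:71603660-71603929 (minus strand), was included in 19.1% and 24.2% of the TPM of transcripts that span it. EIIIB, of 273 bases at chr1:71613763-71614035 (minus strand), was included in 8.61% and 4.18%, from only 1.18 and 0.55 TPM. Skipping thus prevailed for both, and EIIIA exceeded EIIIB in both libraries. The exons are printed in capitals, with the adjoining bases of the neighbouring exons in lower case, since they are what distinguishes these forms.
Fn1 EIIIA: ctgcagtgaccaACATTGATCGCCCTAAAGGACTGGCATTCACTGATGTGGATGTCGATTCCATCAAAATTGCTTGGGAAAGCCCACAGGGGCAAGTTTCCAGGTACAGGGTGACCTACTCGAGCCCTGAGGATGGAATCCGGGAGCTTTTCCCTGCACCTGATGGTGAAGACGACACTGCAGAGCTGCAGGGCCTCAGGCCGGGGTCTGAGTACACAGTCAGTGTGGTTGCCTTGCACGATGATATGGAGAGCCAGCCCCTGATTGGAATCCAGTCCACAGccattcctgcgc
Fn1 EIIIB: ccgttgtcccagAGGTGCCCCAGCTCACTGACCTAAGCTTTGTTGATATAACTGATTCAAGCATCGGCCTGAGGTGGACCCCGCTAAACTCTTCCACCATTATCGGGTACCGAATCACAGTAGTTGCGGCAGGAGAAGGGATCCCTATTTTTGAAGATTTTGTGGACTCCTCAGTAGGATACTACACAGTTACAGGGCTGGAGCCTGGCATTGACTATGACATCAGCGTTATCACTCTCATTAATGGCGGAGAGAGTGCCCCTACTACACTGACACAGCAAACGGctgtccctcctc
These percentages come from estimated transcript abundances and not from counts of reads across junctions.

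Agrin has short inserts, known as y and z, of which z is used by neurons to cluster acetylcholine receptors. The exons matched by length are the 12-base exon at chr4:156169546-156169557 and the 24-base exon at chr4:156168546-156168569, both on the minus strand and shown in capitals within Agrn-203.
Agrn y: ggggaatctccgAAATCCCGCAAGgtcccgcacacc
Agrn z: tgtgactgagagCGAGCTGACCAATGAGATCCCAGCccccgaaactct
The y exon was included in 15.9% and 19.4% of the spanning TPM and the z exon in 31.0% and 32.9%. All of that came from models with a retained intron, Agrn-207 and Agrn-205, and coding transcripts with either exon were listed at 0 TPM in both libraries. The coding transcripts of Agrn, led by Agrn-206, made up 20.3 and 21.8 TPM without them.

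Other alternative exons ranged from mostly skipped to mostly included. The 273-base Tnc exon at chr4:63984460-63984732 was included in 1.72% and 1.03% of spanning TPM. Col6a3 exons of 600, 603 and 618 bases were included in 7.48% to 9.33%. For the Col11a2 exons of 78 and 180 bases the share was 22.1% to 23.1%, nearly all from Col11a2-204. That model has 2090 bases in the deposited data but 1736 codons in M21, so whether its abundance covers these exons was not tested. The Lamc1 exons of 100, 159 and 200 bases were instead included in 55.4% and 51.7%, and the Lama5 exons compared in 69.8% to 98.4%. All Lamc1 skipping came from the 1447-nucleotide Lamc1-204, with 490 and 690 estimated fragments beside 3655 and 4439 for Lamc1-201. The lowest Lama5 share came mostly from the 451-nucleotide Lama5-202, with 12.8 and 30.8 fragments beside 2329 and 3905 for Lama5-201. These TPM shares are thus not shares of fragments. The 78-base exon of Col4a3bp, at chr13:96616994-96617071, was included in 13.6% and 34.1%.

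The machinery that builds and reads this matrix was measured by lists of other genes. Of 18 genes for collagen folding and modification, 16 were at 1 TPM or more, with the prolyl isomerase Ppib at 111 and 111 TPM, P4hb, a subunit of prolyl hydroxylase, at 105 and 109 TPM, Colgalt1, which glycosylates hydroxylysine, at 102 and 91.9 TPM, and the collagen export factor Mia3 at 84.3 and 82.9 TPM. Of 12 genes for collagen processing and cross-linking, 8 were detected, led by Pcolce, an enhancer of procollagen cleavage, at 18.3 and 23.3 TPM, then the cross-linking enzymes Loxl1 and Lox at 10.4 and 14.9 TPM and at 6.16 and 5.52 TPM, and the procollagen protease Bmp1 at 9.68 and 10.6 TPM. None of these genes passed a log2 ratio of 1 between libraries, and the list medians were 0.05 and 0.15. Many folding enzymes also serve other proteins.

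Of 30 matrix receptor genes, 25 were detected. The highest were Cd47, a thrombospondin receptor, at 87.0 and 86.0 TPM, the syndecan Sdc3 at 80.1 and 76.1 TPM, Itgav, the integrin alpha-V chain, at 59.4 and 20.7 TPM, and Bcam, a laminin alpha-5 receptor, at 30.5 and 43.8 TPM. Past a log2 ratio of 1 were Itgav (-1.52), Itga8 (-1.55) and Itga7 (1.35), the laminin-binding chain of muscle, at 2.84 and 7.40 TPM. From counts, scaled by library but not by length, the log2 ratios of Itgav and Itga8 were only -0.74 and -0.81, within the limit, while that of Itga7 was 1.42. The other 22 detected receptor genes were within that limit, and the median of the list was -0.02.

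Of 18 matrix proteases and inhibitors, 14 were detected, with Timp2, an inhibitor, at 60.8 and 60.4 TPM, the membrane protease Mmp14 at 52.8 and 46.9 TPM, the gelatinase Mmp2 at 25.9 and 34.4 TPM and the matrix-bound inhibitor Timp3 at 33.3 and 24.1 TPM. Only Timp4 passed the ratio, at 2.59 and 5.52 TPM (1.06). Of 19 further basement membrane and small leucine-rich genes, 14 were detected, led by Bgn (biglycan), a relative of decorin, at 69.9 and 72.2 TPM. Bgn was thus above Dcn in replicate 1 and about level with it in replicate 2. Fbln2, Smoc1 and Fbln1 followed at 60.2 and 55.5, 38.6 and 32.9, and 23.9 and 36.9 TPM, and Ogn (osteoglycin) passed the ratio at 0.65 and 1.48 TPM (1.07). Protease, receptor and folding genes stood on the same TPM scale as the matrix genes, whose detected members had a median of 9.45 TPM.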

How the data were processed

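The 2 thymus libraries of 1 group were analysed from the authors' deposited gene and transcript tables. Their values are, per the file headers, expected counts (fragments estimated per feature, not normalised), TPM (the authors' length-scaled values, scaled to one sum in each library) and the percent of a gene's TPM on each transcript; per the deposited text files they were quantified on mm10 with GENCODE M4. Neither aligner nor quantifier is given in the sources used here. Symbols, classes, coordinates and sequences came from GENCODE M21 on GRCm38, matched by gene ID (42462 genes matched). Of the 327 deposited transcripts of the member genes, 302 had the same length in M21. Exon shares set the deposited abundances against M21 exons. The deposited contigs and junctions on mm9 were not used.

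Members and gene lists were chosen with earlier results of these data known. Genes named from other lists are the up to 4 highest of each list and those past the fold limit. Detection was a mean of 1 TPM and library ratios used a pseudocount of 0.1. Expected counts were rounded for the exact binomial test in edgeR 4.0.16 (TMM scaling, 17198 genes, Benjamini-Hochberg adjustment). It was tried only on simulated counts with counting error alone, as the test assumes, so that trial does not cover spread between real libraries. Alternatives used DESeq2 1.42.0 size factors, other filters, pseudocounts, scalings and each library alone. Other tools were R 4.3.3 and Python 3.11.15. Of fragments, 1.49% and 1.48% lay outside genes and were left out of count tests. Values of 1 member gene are not reported singly here. Intervals and floors cover counting error only.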

Additional observations from a re-analysis of the deposited data

How the results depend on the processing

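The median member level was 3.62 TPM, 11.95 as CPM, 3.97 with posterior mean TPM and 2.65 on coding transcripts at least 50% as long as the longest, an alternative chosen after seeing the data, and 3.56 to 3.67 in a single library. Detection was 47 genes, 31 at a limit of 5 TPM, and 43 to 53 under the other 7 alternatives (47 to 48 in a single library). The count past a log2 ratio of 1 was 0, and 1 with no filter (Col26a1) or with TPM rescaled over protein-coding genes (Lamb2 at 1.04), and 0 under the other 6 alternatives. The median ratio stayed between 0.02 and 0.13 under its 8 alternatives. The 3 genes past both limits of the count test were Col10a1, Col4a3 and Col4a4 with DESeq2 factors, library size alone or no filter. The negative binomial test called 0, but its spread was estimated from the same difference that it tested. With library size alone, 33 genes were higher and 6 lower at an adjusted p under 0.05. The pairs with the same gene higher in both libraries numbered 13, 13 as CPM and 14 on long coding transcripts. As CPM the exceptions were Col1a1 with Col1a2 and Col6a1 with Col6a2. There Col9a1 equalled Col9a2 in replicate 2, a tie that was counted as the same order. The median leading share was 68.1%, 67.04% with posterior means, and 68.7% to 69.8% in a single library. The levels of 26 of 47 genes moved beyond the spread between libraries on long coding transcripts, and the causes were not tested. With 2 libraries every SD rests on 1 difference. No paired analysis was possible because the labels give 1 group.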

Other observations

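Several of these genes are neighbours in the genome. Leaving out Col4a3bp, 10 pairs lay within 100 kb of each other on GRCm38 and held 19 of the genes, with 3 pairs head to head, 2 tail to tail and 5 on the same strand. All 3 head-to-head pairs were collagen IV genes. Col4a1 and Col4a2 overlap by 22 bases on chromosome 8 and differed 1.44-fold in mean TPM (27.6 and 19.3 TPM). Col4a4 and Col4a3 lie 71 bases apart on chromosome 1 at 0.12 and 0.10 TPM, a ratio of 1.2. Col4a6 and Col4a5 lie 1308 bases apart on chromosome X and differed 3.91-fold (0.28 and 1.10 TPM). Levels within such pairs were thus close for some and apart for others.

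Among pairs on the same strand, Col6a2 and Col6a1 on chromosome 10, 85161 bases apart, differed by 1.03-fold, while Dcn and Lum, 46984 bases apart on the same chromosome, differed by 7.05-fold, with log2 library ratios of 0.88 and 0.72. The tail-to-tail pair Col3a1 and Col5a2, 24614 bases apart, differed by 6.81-fold. In 5 of the 10 pairs both genes reached 1 TPM.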
